A study of Mus musculus with 96 samples.

Results

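Solute carriers of the Slc5a, Slc12a, Slc22a and Slc34a families move sugars, salt, organic ions and phosphate across the membranes of kidney tubules, gut epithelium and liver. All genes whose symbol in the deposited count table consists of 1 of these 4 family names and a number were taken as members. They came to 48 of 56941 gene rows, each symbol on a single row: 11 Slc5a, 9 Slc12a, 25 Slc22a and 3 Slc34a genes. RNA had been sequenced from kidney, small intestine, liver, heart, brain, skeletal muscle and spleen of 2 month-old mice, of which 15 libraries each came from kidney, small intestine, liver, brain and skeletal muscle, 14 from heart and 7 from spleen. The mice belonged to the reprogrammable strains 4Fj, 4FsB, 4Fk and 4FsA, which carry inducible reprogramming factors, or to WT. The labels name no inducing agent, dose or transgene promoter, and the table's columns carry a tissue code and a running number but no genotype. No library was therefore assigned to a strain, each tissue mixes genotypes, and the measured level of Pou5f1, the gene of the reprogramming factor Oct4, was used as a continuous measure within a tissue.

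Sodium-coupled transporters of the Slc5a family carry glucose, other sugars, inositol, vitamins and monocarboxylates into cells. Slc12a proteins carry chloride together with sodium or potassium, and those of the nephron are the targets of loop and thiazide diuretics. Slc22a proteins carry organic cations, anions, carnitine and urate, and are known for drug and waste excretion in kidney and drug uptake in liver. Slc34a proteins carry phosphate with sodium and set phosphate absorption in the gut and reabsorption in the proximal tubule.

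Levels are given as CPM, the estimated count of a gene per 1000000 counts of its library, and are compared between libraries of the same gene, not between genes, because no gene length enters them. Library totals ran from 6624474 to 17882603 counts, so 0 counts allow up to 0.168 to 0.453 CPM (3 counts, counting error only). The kidney and liver labels fitted the proximal tubule and hepatocyte lists in sum, but not every list was highest in its own organ. The thick ascending limb and distal tubule list summed to 1241 to 8800 CPM in kidney and 4121 to 22978 CPM in skeletal muscle. The podocyte list had a median of 279 CPM in kidney and 354 CPM in heart. The enterocyte list fell to 121 CPM in 1 small intestine library, against 193 to 407 CPM in kidney. The proximal tubule list (6 genes) summed to 6623 to 39820 CPM in kidney libraries, against at most 1621 CPM in small intestine and 1182 CPM in liver, and the hepatocyte list (6 genes) to 42856 to 115913 CPM in liver, against at most 3226 CPM in kidney. Among the small intestine libraries, 2 had 62.3% and 78.8% of their counts from mitochondrially encoded genes. The first of these also held kidney transcripts, with 114 CPM of the proximal tubule gene Kap, against at most 1.59 CPM in the other 14. Another small intestine library held 24806 CPM of 5 pancreatic acinar genes, against at most 21.0 CPM in the others.

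Most members were found in kidney. A median of 1 CPM or more was reached by 41 of 48 members in kidney, 24 in small intestine and 21 in liver, against 12 to 20 in the other tissues. The highest tissue median lay in kidney for 26 members, in small intestine for 6 and in liver for 1. In 12 members the median reached 1 CPM in a single tissue, in 11 it did so in all 7, and in 4 it did so in none. Kidney held 21 of 25 Slc22a genes at this level, small intestine 9 and liver 12. These counts cover members only, and the shares over all genes were not taken, so how far members differ from other genes here is not shown.

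**Figure D1:**
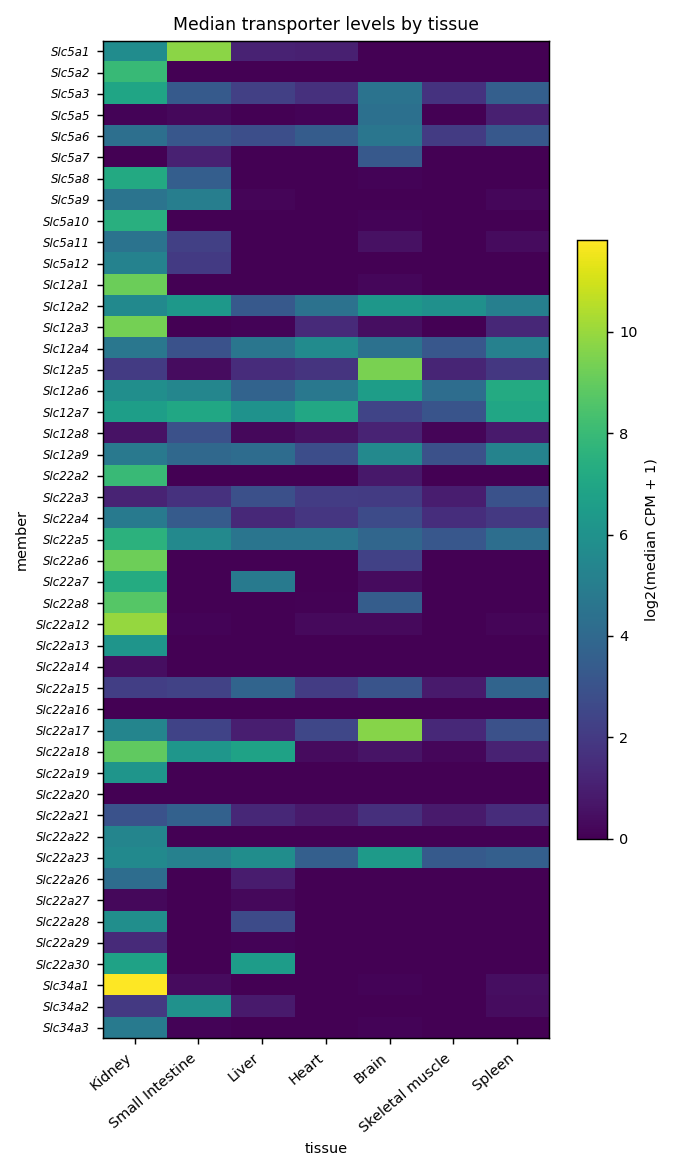
Median level of 47 members (rows) in 7 tissues (columns), as log2(median CPM + 1). Of the members drawn, 40 are at a median of 1 CPM or more in kidney, 23 in small intestine and 20 in liver.

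A member was called restricted to a tissue when its level there exceeded that in each of the other 6 tissues by 4-fold or more, each at an adjusted p under 0.05 in edgeR's quasi-likelihood test with Benjamini-Hochberg adjustment. Where an adjusted p stands beside a fold between tissues below, it is the largest of that member's 6 contrasts. It need not be that of the nearest tissue. In all, 44 members had enough counts to be tested. Kidney restriction was called for 15 of the 44, where 2.1% of all 20100 tested genes were called. Small intestine restriction was called for 3, where the share of all genes was 2.69%, and liver restriction for 1, where it was 2.91%. Brain restriction was called for 3 members, Slc12a5, Slc22a17 and Slc5a5, with 10% of all genes called (these 3 are named after their values were seen). The other 22 tested members were called in no tissue. Over the members, the median of the smallest log2 fold of kidney over another tissue was 0.45, against -1.61 over all tested genes; the same median was -3.55 for small intestine, against -1.73 over all genes, and -5.15 for liver, against -1.69.

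The kidney calls were 8 Slc22a genes, 3 Slc5a genes, 2 Slc12a genes and 2 Slc34a genes. Promoters of those among them that hold GTTAAT, the core of the site bound by the HNF1 factors, which act in kidney tubule, liver and gut epithelium, follow, since these genes share the kidney restriction. Each runs from 250 bases before to 50 bases after the annotated start in RefSeq on GRCm38.p6, which is not the GRCm39 build named for the counts. Capitals mark GTTAAT on either strand (ATTAAC where it lies on the other strand).
Slc34a1 (chr13:55399398-55399697, plus strand): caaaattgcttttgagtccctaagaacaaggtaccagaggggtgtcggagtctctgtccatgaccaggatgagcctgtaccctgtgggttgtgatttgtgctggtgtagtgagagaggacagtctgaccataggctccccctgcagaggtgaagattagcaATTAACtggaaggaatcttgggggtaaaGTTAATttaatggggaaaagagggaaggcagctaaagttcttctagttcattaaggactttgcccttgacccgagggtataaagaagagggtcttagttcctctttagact
Slc22a6 (chr19:8617746-8618045, plus strand): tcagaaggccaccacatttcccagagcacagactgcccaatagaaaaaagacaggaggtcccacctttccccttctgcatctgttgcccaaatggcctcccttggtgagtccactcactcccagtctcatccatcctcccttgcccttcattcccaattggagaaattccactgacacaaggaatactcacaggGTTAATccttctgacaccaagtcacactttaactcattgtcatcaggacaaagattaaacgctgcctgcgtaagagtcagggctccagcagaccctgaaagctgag
Slc22a8 (chr19:8592932-8593231, plus strand): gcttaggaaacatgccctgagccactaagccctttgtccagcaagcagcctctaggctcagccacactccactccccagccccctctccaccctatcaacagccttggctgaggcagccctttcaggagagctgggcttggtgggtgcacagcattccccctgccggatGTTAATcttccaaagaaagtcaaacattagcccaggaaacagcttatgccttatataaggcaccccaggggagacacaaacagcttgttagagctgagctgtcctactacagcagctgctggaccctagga
Slc5a10 (chr11:61720750-61721049, minus strand): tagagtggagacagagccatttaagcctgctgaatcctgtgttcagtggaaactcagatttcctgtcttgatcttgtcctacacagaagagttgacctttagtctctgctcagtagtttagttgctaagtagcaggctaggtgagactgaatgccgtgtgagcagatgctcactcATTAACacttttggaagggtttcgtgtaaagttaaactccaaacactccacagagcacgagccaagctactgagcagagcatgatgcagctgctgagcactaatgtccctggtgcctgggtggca
Slc5a10 has 2 promoter entries, of which the one with the match is shown. GTTAAT occurred in 4 of the 14 kidney-called members that had a promoter entry, and in 6 of the 40 members with one. It is short, and 7.1% of all 32851 promoters in the table hold it. The longer HNF1 form GTTAATNAT was in 0.801% of all promoters and in no kidney-called member. Of the other motifs searched on both strands, the HNF4 forms CAAAGGTCA and CAAAGTCCA were in 0.478% and 0.475% of all promoters, and in 1 and 0 of the 40 members. The CDX form TTTATG was in 11.9% of all promoters and in 3 of the 40 members. The motifs and the promoters printed were chosen after the levels were known, and a match is a run of letters, not a measured site. Members with GTTAAT outside the kidney calls were Slc12a8, called for small intestine, and Slc22a29, called in no tissue. GTTAAT therefore occurred among both kidney-called and gut-called members, and a difference between them was not tested. The promoter of the intestinal phosphate transporter Slc34a2, of the same family as Slc34a1, holds no GTTAAT in this window, as is the case for most kidney-called members.
Slc34a2 (chr5:53049103-53049402, plus strand): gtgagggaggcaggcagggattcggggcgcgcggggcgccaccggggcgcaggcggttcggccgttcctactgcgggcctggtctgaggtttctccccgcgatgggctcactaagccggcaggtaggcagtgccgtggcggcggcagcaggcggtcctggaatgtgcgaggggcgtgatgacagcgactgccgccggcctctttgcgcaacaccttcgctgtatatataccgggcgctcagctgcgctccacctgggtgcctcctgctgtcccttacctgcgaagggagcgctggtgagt

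Phosphate transporters split between the organs. Slc34a1, the main phosphate transporter of the proximal tubule, was at 636, 3574 and 7119 CPM in kidney (lowest, median and highest library), against a highest value of 15.3 CPM in small intestine and 1.93 CPM in liver. Every kidney library lay above every library of the other tissues. The log2 fold over the nearest tissue, small intestine, was 10.10 ± 0.87 (SE; edgeR adjusted p = 1.97e-14). The value of 15.3 CPM came from the library with kidney transcripts, and without the 2 small intestine libraries of high mitochondrial share the smallest log2 fold over any tissue was 13.19. Slc34a3, the second renal phosphate transporter, was at 5.08, 28.2 and 60.4 CPM in kidney, against at most 2.69 CPM elsewhere (log2 fold over small intestine 5.37 ± 0.71, edgeR adjusted p = 5.94e-09). Slc34a2, the transporter of gut phosphate absorption, had its levels the other way round, at 0, 62.5 and 483 CPM in small intestine, against 0.122, 0.826 and 28.8 CPM in liver and 0.703, 2.86 and 26.6 CPM in kidney. Its small intestine values overlapped those of both organs. The log2 fold over the nearest tissue, liver, was 4.87 ± 0.64 (edgeR adjusted p = 1.84e-10).

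Sodium and chloride transporters of the nephron were found almost wholly in kidney. Slc12a1, the loop diuretic target of the thick ascending limb, was at 226, 562 and 1239 CPM in kidney, against at most 3.42 CPM elsewhere. That highest value elsewhere came again from the small intestine library with kidney transcripts, and the next was 0.530 CPM. The log2 fold of Slc12a1 over small intestine was 10.47 ± 0.65 (edgeR adjusted p = 4.61e-20). Slc12a1 was at 0 in the other 14 small intestine libraries, and without the 2 libraries of high mitochondrial share the smallest log2 fold over any tissue was 12.13. Slc12a3, the thiazide target of the distal convoluted tubule, was at 303, 639 and 2181 CPM in kidney, against at most 12.4 CPM elsewhere (log2 fold over heart 7.85 ± 0.72, edgeR adjusted p = 2.78e-12). No kidney library overlapped another tissue for either gene. Slc12a2, the widely expressed counterpart of Slc12a1 that loads cells with chloride, was not restricted and was at 18.7, 46.8 and 78.7 CPM in kidney, 3.90, 77.3 and 125 CPM in small intestine and 6.10, 8.97 and 44.5 CPM in liver. Slc12a8, for which small intestine restriction was called, was low, at 0, 6.72 and 27.6 CPM in small intestine, against 0.554, 1.24 and 3.18 CPM in brain, the nearest tissue (log2 fold 2.84 ± 0.51, edgeR adjusted p = 2.35e-06). It was at 0 in the 2 small intestine libraries of high mitochondrial share.

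The glucose transporters divided between gut and kidney. Slc5a1, the high-affinity glucose transporter of the gut brush border and the late proximal tubule, was at 21.4, 875 and 3581 CPM in small intestine, against 23.7, 52.7 and 116 CPM in kidney. The groups overlapped, because some small intestine libraries fell to kidney levels. The log2 fold of small intestine over kidney was 4.85 ± 0.56 (edgeR adjusted p = 1.95e-12). Slc5a2, which recovers most filtered glucose in the early proximal tubule and is the target of the gliflozin drugs, was at 93.1, 246 and 492 CPM in kidney, against at most 1.77 CPM elsewhere (log2 fold over spleen 10.02 ± 0.70, edgeR adjusted p = 1.06e-22). Slc5a10, a renal mannose and fructose transporter, was at 79.9, 171 and 420 CPM in kidney and below 1 CPM in every library elsewhere. Kidney restriction of Slc5a3, a myo-inositol transporter that responds to osmotic stress, was smaller, with a log2 fold of 2.89 ± 0.27 over brain (edgeR adjusted p = 3.67e-16), and ended at a minimum of 10-fold. Slc5a12, a lactate transporter of the brush border, was shared by kidney, at 5.72, 36.3 and 213 CPM, and small intestine, at 0, 2.96 and 108 CPM. Its log2 fold of kidney over small intestine was 1.07 ± 0.62 (edgeR adjusted p = 0.131), and no liver library had a count.

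Organic ion transporters made up the largest of the families, and 8 of its 25 members were called for kidney. Slc22a6 and Slc22a8, the organic anion transporters of the basolateral proximal tubule, were at 273, 592 and 1016 CPM and at 103, 417 and 650 CPM in kidney. Elsewhere both were highest in brain, at up to 8.63 CPM for Slc22a6 and 17.2 CPM for Slc22a8, and their log2 folds of kidney over brain were 7.47 ± 0.52 and 5.29 ± 0.46 (edgeR adjusted p = 2.69e-21 and 8.92e-19). Slc22a12, the urate transporter of the brush border, was at 382, 965 and 1566 CPM in kidney, against at most 3.27 CPM elsewhere (log2 fold over heart 9.61 ± 0.75, edgeR adjusted p = 7.39e-16). Slc22a2, the renal organic cation transporter, was at 71.1, 256 and 394 CPM in kidney and at most 1.95 CPM elsewhere. In each of these, all kidney libraries lay above all other libraries. Slc22a13, Slc22a19 and Slc22a22, further renal anion carriers, reached at least 28.3, 26.3 and 5.95 CPM in every kidney library, against at most 0.129, 0.688 and 1.44 CPM elsewhere.

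Slc22a28 was the kidney-called member whose libraries overlapped, at 3.34, 56.7 and 164 CPM in kidney, against up to 10.3 CPM in liver (log2 fold 3.40 ± 0.68, edgeR adjusted p = 4.87e-05). Slc22a19 and Slc22a26 to Slc22a30 are close paralogs, so reads may be split among them. The single liver call was Slc22a15, at 5.12, 13.1 and 69.1 CPM in liver, against 1.32, 12.8 and 18.0 CPM in spleen. Liver values above the highest spleen value lay at 37.8 to 69.1 CPM, all in libraries with 5.71 to 83.4 CPM of Pou5f1. The remaining liver libraries were at 5.12 to 15.4 CPM, within the spleen range. The log2 fold was 2.06 ± 0.47 (edgeR adjusted p = 1.11e-04), just past the 4-fold minimum, and the call ended with DESeq2 size factors (1.92), with library totals (1.07) and in DESeq2's Wald test (1.93).

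**Figure D2:**
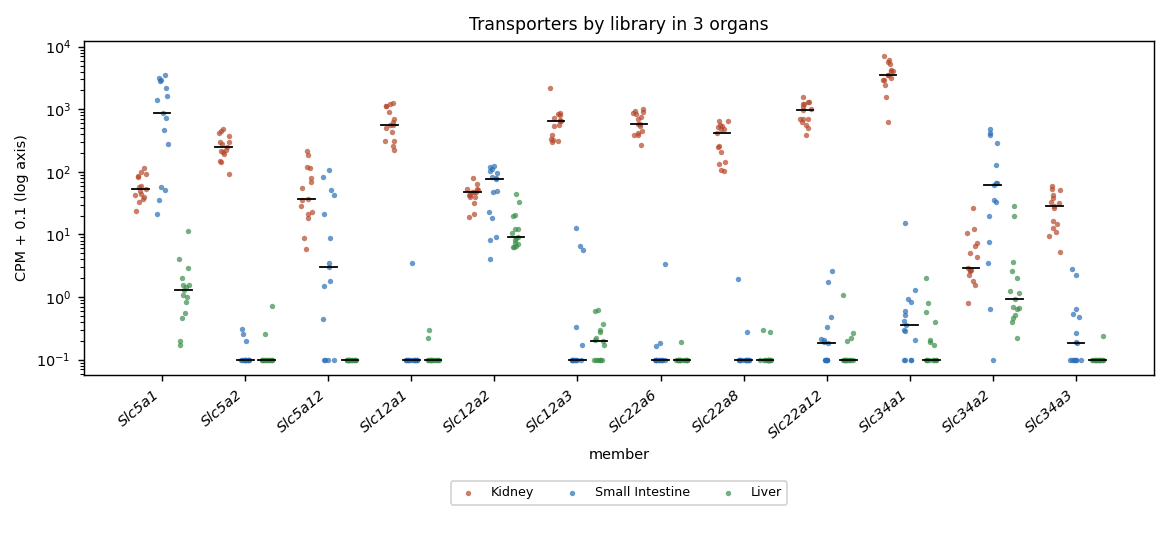
Level in CPM + 0.1 (log axis) of 12 members in each library of kidney, small intestine and liver (15 each), with 1 point per library and a bar at the median. Slc34a1, Slc12a1, Slc22a6 and Slc5a2 stand apart in kidney, and Slc5a1 spreads in small intestine between 21.4 and 3581 CPM.

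Whether the transporters change with Pou5f1 was asked within kidney, small intestine and liver, as the slope of log2 level per unit of log2(Pou5f1 CPM + 1), fitted by edgeR over all genes of the tissue and called at an adjusted p under 0.05. Pou5f1 reached 1 CPM in 6 kidney, 8 small intestine and 6 liver libraries, and its highest values were 18.5, 139 and 199 CPM. In tissue pieces, fewer cells of a type and less RNA per cell cannot be told apart. The labels do not say whether libraries come from separate animals, so p-values measure the spread between libraries.

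**Figure D3:**
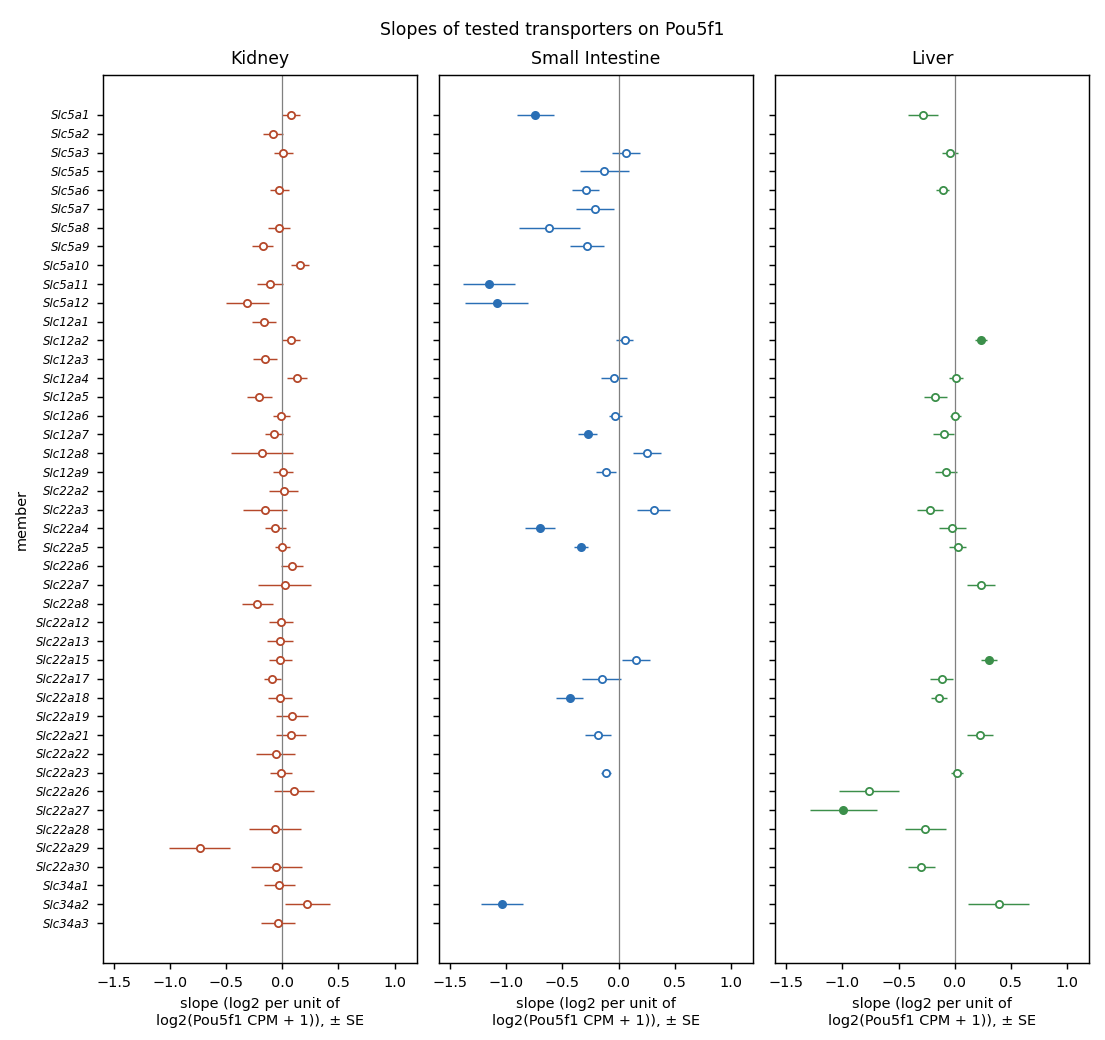
Slope of the members drawn on Pou5f1 in kidney (41 members), small intestine (24) and liver (23), in log2 per unit of log2(Pou5f1 CPM + 1), with bars of ± SE and filled points for an adjusted p under 0.05. Filled points are absent in kidney, all 8 lie below 0 in small intestine, and in liver 2 lie above 0 and 1 below.

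In kidney no member was called for a change with Pou5f1. Of 42 members tested, 0 were called up, where 0.0127% of all 15775 genes were, and 0 down, where 0% were. At an unadjusted p under 0.05 there was 1 member, with 5.32% of all genes, and DESeq2's Wald test called 0 members. The members' slopes ran from -0.74 to 0.22, with a median of -0.02, against -0.003 over all genes. Slc34a1 illustrates the spread. In order of rising Pou5f1 its libraries read 3126, 6171, 4135, 5244, 5639, 2897, 3480, 2478, 2972, 3574, 4305, 1546, 4100, 636 and 7119 CPM. The lowest and the highest value stand side by side in the 2 libraries highest in Pou5f1, at 9.11 and 18.5 CPM. The slope of Slc34a1 was -0.03 ± 0.14, that of Slc12a3 -0.16 ± 0.11, that of Slc22a6 0.09 ± 0.10 and that of Slc5a2 -0.08 ± 0.09 (SE). Over the 5 partner lists of the same pathways, 0 genes were called in kidney by edgeR and 4 of 43 had an unadjusted p under 0.05, against the same 5.32% of all genes. The lists cover 16 of the sodium and WNK kinase pathway, 10 of phosphate handling, 7 of organic ion handling, 5 of sugar uptake and 5 epithelial regulators.

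In small intestine 9 of 25 tested members fell with Pou5f1, where 11.5% of all 15738 genes fell, and 0 rose, where 15.3% of all genes rose. Among them were the phosphate transporter Slc34a2, the sugar, inositol and lactate transporters Slc5a1, Slc5a11 and Slc5a12, the potassium chloride transporter Slc12a7, and Slc22a4, Slc22a5 and Slc22a18. The median slope was -0.21 over the 25 members, against -0.01 over all genes. In all, 13 of the 25 members had an unadjusted p under 0.05, as did 37.9% of all genes. DESeq2's Wald test called 12 members down and 0 up, where 18.7% of all genes were down and 17% up. With library totals in place of TMM scaling, 6 members were called down, and all genes divided into 2116 up and 562 down, against 2412 up and 1806 down with TMM.

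Slc34a2 had the smallest adjusted p of the 9. In order of rising Pou5f1, whose values were 0 in 6 libraries and then 0.479, 2.93, 3.82, 5.82, 9.30, 19.5, 75.5, 122 and 139 CPM, Slc34a2 read 387, 62.5, 131, 415, 483, 285, 33.3, 3.41, 65.5, 67.3, 19.6, 35.1, 7.43, 0.555 and 0 CPM. Its highest values stand in libraries without Pou5f1, though 62.5 CPM in 1 of these lay below 65.5 and 67.3 CPM in libraries with Pou5f1. The lowest values, 0.555 and 0 CPM, stand in the libraries with 122 and 139 CPM of Pou5f1. The next lowest, 3.41 CPM, came from the library with 78.8% mitochondrial counts. The slope was -1.04 ± 0.19 (edgeR adjusted p = 7.98e-04), which stayed called when any single library was left out but not among the 8 libraries at 1 CPM or more of Pou5f1 (-1.30, adjusted p = 0.0784). Slc5a1 read 3581, 2886, 3133, 1604, 1385, 2801, 283, 35.7, 717, 875, 2210, 473, 57.7, 52.1 and 21.4 CPM in the same order. Apart from the library with 78.8% mitochondrial counts, at 35.7 CPM, its 3 lowest values are those of the 3 libraries with most Pou5f1. The slope of Slc5a1 was -0.74 ± 0.17 (edgeR adjusted p = 0.00349).

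The inositol transporter Slc5a11 ranged from 0 to 153 CPM with a slope of -1.15 ± 0.23 (edgeR adjusted p = 0.00191), and was at 0.525, 0.278 and 0.158 CPM in the 3 libraries with most Pou5f1. Slc5a12 had a slope of -1.08 ± 0.28 (adjusted p = 0.00906), and was at 1.40, 0 and 0 CPM there. Slc22a4, the ergothioneine transporter, fell with a slope of -0.70 ± 0.14 (adjusted p = 0.00114), and its neighbour and close paralog Slc22a5, the carnitine transporter, with -0.34 ± 0.06 (adjusted p = 0.00102). Both were lowest in the library with 78.8% mitochondrial counts, at 0 and 3.13 CPM. Slc22a18 had -0.43 ± 0.12 and Slc12a7 -0.28 ± 0.08 (adjusted p = 0.0128 and 0.0188), and each call ended when either of 2 libraries was left out. Sodium-coupled uptake and the Slc12a family did not move as 1 block. Slc12a2 was at 125, 95.3 and 103 CPM in the 3 libraries with most Pou5f1, of which the first is its highest value in the tissue, and its slope was 0.05 ± 0.07 (adjusted p = 0.64).

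**Figure D4:**
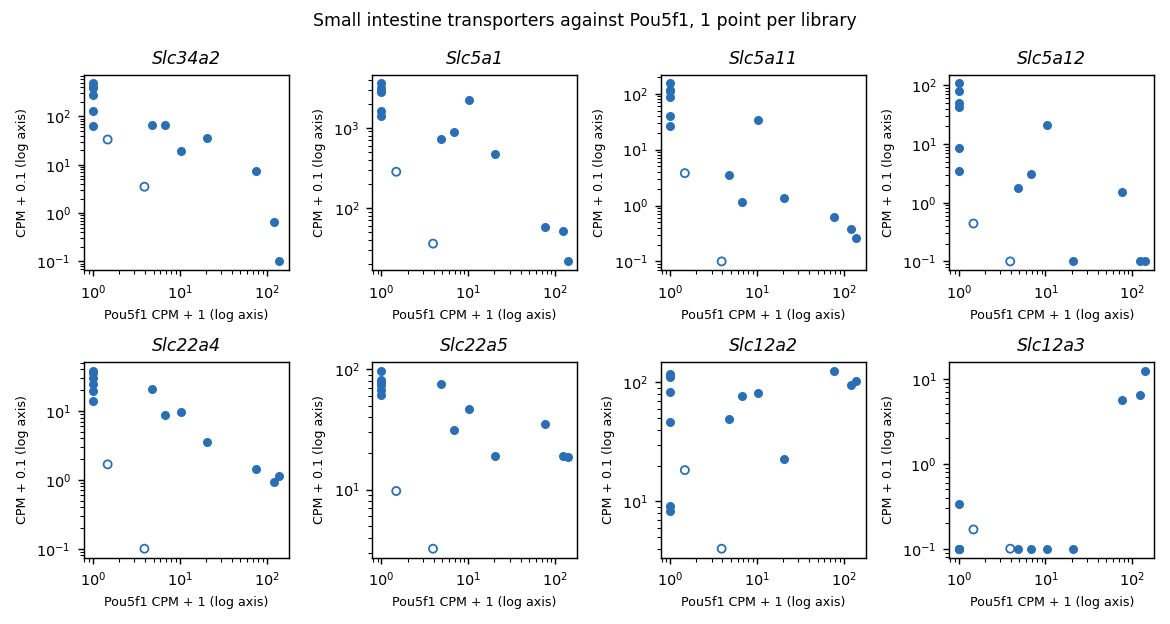
CPM + 0.1 of 8 members in the 15 small intestine libraries against Pou5f1 CPM + 1 (both log axes), with 1 point per library and open points for the 2 libraries of over 50% mitochondrially encoded counts. Slc34a2 reaches 0 CPM and Slc5a1 21.4 CPM at the right end, Slc12a2 shows no such fall, and Slc12a3 is above 1 CPM only in the 3 rightmost libraries.

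Enterocyte markers moved in the same direction. Of 7 markers, 6 fell with Pou5f1, with a median slope of -0.73, and the summed level of the 7 ran from 121 to 40476 CPM, with 1123, 729 and 121 CPM in the 3 libraries with most Pou5f1. Of all genes tested in small intestine, 11.5% fell and 15.3% rose. All 7 markers had a median of 1 CPM or more in small intestine. Sis and Lct, both among these markers, are also in the sugar uptake list. Of the other 5 genes tested in that list 3 fell, among them the fructose transporter Slc2a5 (-0.83 ± 0.23) and the basolateral glucose transporter Slc2a2 (-0.97 ± 0.25), and Slc2a1, the widely expressed glucose transporter, rose (0.22 ± 0.07). In the organic ion list 4 of 5 fell, and in the phosphate list 3 of 8 fell, including the scaffold gene Pdzk1 (-1.25 ± 0.19) and the vitamin D receptor gene Vdr (-0.63 ± 0.10). In the sodium and WNK list 2 of 10 rose and 3 fell, and of the epithelial regulators 3 of 8 fell. Of the 4 crypt and dividing cell markers 2 rose, the division genes Mki67 (0.35 ± 0.07) and Top2a (0.45 ± 0.10). The crypt genes Lgr5 (-0.12 ± 0.15) and Olfm4 (-0.41 ± 0.32) were not called. What part the number of enterocytes has in the fall of the transporters was not tested.

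Fewer members were called when libraries were left out at either end of Pou5f1. Without the 2 libraries farthest from its median, Slc34a2 alone was called (-0.84, edgeR adjusted p = 0.0142). The calls over all genes shrank too, to 1.59% down and 2.44% up, from 11.5% and 15.3% with all libraries. The slopes in that fit were -0.31 for Slc22a5, -0.64 for Slc22a4, -1.04 for Slc5a11, -0.93 for Slc5a12 and -0.32 for Slc12a7, each within 1 SE of its slope over all libraries, and -0.52 for Slc5a1 and -0.25 for Slc22a18. Among the 8 libraries at 1 CPM or more of Pou5f1, Slc22a5 (-0.37) and Slc22a18 (-0.88) were called down and Slc12a3 up. Of all genes, 4.74% were down and 3.26% up there. Without the 2 libraries of high mitochondrial share there were 12 down and 1 up, Slc12a8, with 18.2% and 19.9% of all genes. Without the library with acinar genes there were 10 down, with 12.9% of all genes.

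Not all members went down, and those described next were picked after their values were seen. Slc22a3, an organic cation transporter, was at 30.5, 12.03 and 11.01 CPM in the 3 small intestine libraries with most Pou5f1 and at 4.08 CPM or less in the other 12, with a slope of 0.31 ± 0.15 (edgeR adjusted p = 0.126). Slc12a8 was at 20.9, 25.5 and 27.6 CPM in those 3 and at 16.4 CPM or less in the others, with a slope of 0.25 ± 0.12 (adjusted p = 0.144). For both genes the 3 libraries with most Pou5f1 lay above all others, and neither slope was called. Slc12a3 was at 5.51, 6.39 and 12.4 CPM in the same 3 libraries and at 0.232 CPM or less in the other 12, too few counts to pass the filter in small intestine. Without that filter its slope was 1.01 ± 0.19 (adjusted p = 0.00102). Thick ascending limb and distal tubule markers summed to at most 8.71 CPM in small intestine, and Slc12a1 and Umod were at 0 in the same 3 libraries.

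Differences of slope between tissues were read only for genes that had enough counts to be tested in each of the tissues compared. Slopes differed between small intestine and kidney for 4 of 23 such members, where 2.95% of all 13920 such genes differed. These were Slc34a2 (-1.26 ± 0.33), Slc5a11 (-1.06 ± 0.24), Slc5a1 (-0.84 ± 0.23) and Slc22a4 (-0.66 ± 0.19), all lower in small intestine. With library totals none of the 4 was called by edgeR (adjusted p from 0.105 for Slc5a11 to 0.255 for Slc22a4). Between small intestine and liver 5 of 18 members differed, with 16.7% of all genes. Between liver and kidney 0 of 23 differed in edgeR's test, where 0% of all genes did, and 1 member had an unadjusted p under 0.05. Over all genes that passed the filter in the 3 tissues together, the counts were 6 of 41 members between small intestine and kidney, where 2.9% of all genes differed, 8 of 41 between small intestine and liver (15.8%) and 0 of 41 between liver and kidney (0.0196%). The added members lacked enough counts in at least 1 of the tissues compared. No other tool was run for these differences.

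In liver 2 of 24 tested members rose with Pou5f1, where 6.88% of all 14146 genes rose, and 2 fell, where 4.85% of all genes fell. The median slope was -0.09 over the members, against -0.01 over all genes. With library totals the liver genes divided into 1139 up and 387 down, against 973 and 686 with TMM, and the members again into 2 and 2. In order of rising Pou5f1, at 0, 0, 0, 0.101, 0.222, 0.418, 0.483, 0.487, 0.494, 5.71, 18.7, 43.6, 63.4, 83.4 and 199 CPM, Slc22a15 read 11.8, 12.4, 15.4, 11.9, 13.1, 5.12, 9.94, 8.89, 6.03, 39.7, 38.7, 37.8, 69.1, 65.9 and 13.2 CPM. Of the 6 libraries above 1 CPM of Pou5f1, 5 exceeded all the others in Slc22a15, and the library with most Pou5f1 did not. Its slope was 0.31 ± 0.07 (edgeR adjusted p = 0.0126). Slc12a2 read 12.2, 12.1, 7.23, 6.87, 6.10, 8.68, 6.27, 8.04, 6.32, 10.5, 19.9, 20.7, 44.5, 33.0 and 8.97 CPM, again with the library highest in Pou5f1 among the low ones, and its slope was 0.23 ± 0.05 (adjusted p = 0.0136). Both calls ended when either the library with 63.4 or that with 83.4 CPM of Pou5f1 was left out.

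Of the members that fell in liver, Slc22a27 had a slope of -0.99 ± 0.30 (edgeR adjusted p = 0.039), which rests on 3 libraries at 65.1, 12.9 and 15.4 CPM, all without Pou5f1, while the other 12 were at 0.998 CPM or less. With a library left out it was still called in 7 of 15 fits and had too few counts to be tested in 4. Among libraries at 1 CPM or more of Pou5f1, edgeR called no member in liver, but it also called 0 of all 14029 genes up or down. In that fit the slope of Slc22a15 was -0.053. Over all liver libraries, 1 of 6 hepatocyte markers fell and none rose, where 4.85% of all genes fell and 6.88% rose. All 3 tested immune markers and 2 of 3 red cell genes fell. Whether these bear on the transporters was not tested.

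Other liver patterns did not follow Pou5f1 in a line and were picked after their values were seen. Slc34a2 was at 19.9 and 28.8 CPM in the 2 libraries with 5.71 and 18.7 CPM of Pou5f1, and at 3.48 CPM or less in the other 13. The same 2 libraries had the highest levels of Slc22a7, an organic anion transporter shared by liver and kidney, at 211 and 159 CPM, against 5.89 to 105 CPM in the others. Slc22a30 was at 4.94, 3.59 and 6.01 CPM in the 3 libraries with 43.6, 63.4 and 83.4 CPM of Pou5f1, but at 89.8 CPM in the library with most, and its slope of -0.30 ± 0.12 was not called (edgeR adjusted p = 0.105).

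**Figure D5:**
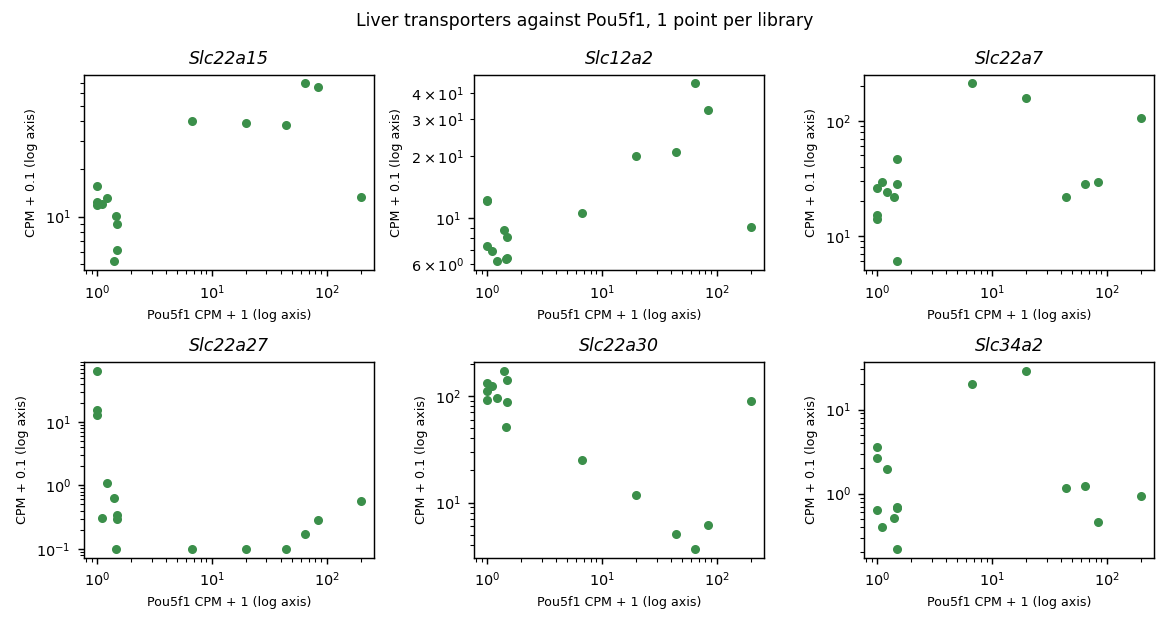
CPM + 0.1 of 6 members in the 15 liver libraries against Pou5f1 CPM + 1 (both log axes), with 1 point per library. Slc22a15 is high in libraries between 5.71 and 83.4 CPM of Pou5f1, Slc12a2 in those between 18.7 and 83.4 CPM, and both are low again at 199 CPM, and Slc34a2 and Slc22a7 are highest in the same 2 libraries.

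Some Slc22a paralogs followed another split of the libraries. Of the 96 libraries, 7 had 0 counts of the Y-linked gene Ddx3y, with 1 each in kidney, liver, heart, skeletal muscle and spleen and 2 in brain. The liver library without Ddx3y had 149 CPM of Slc22a26, 65.1 CPM of Slc22a27 and 11.5 CPM of Slc22a29, against at most 14.8, 15.4 and 4.37 CPM in the 14 others. In kidney, the library without Ddx3y had 32.6 CPM of Slc22a29, against at most 5.56 CPM in the 14 others. Its Slc22a27 was at 3.47 CPM, against at most 0.505 CPM. Slc22a26 went the other way than in liver, at 1.96 CPM in this kidney library, against at least 5.07 CPM. Slc22a30 was at 3.77 CPM there, against at least 10.8 CPM. In the liver library without Ddx3y it was at 92.2 CPM, within the 3.59 to 172 CPM of the others. The kidney library without Ddx3y also had the highest Slc12a3, at 2181 CPM against at most 874 CPM, and the lowest Slc22a6, at 273 CPM against at least 387 CPM. The X-linked gene Xist was at 1117 CPM in the kidney library without Ddx3y, 408 in liver, 883 in spleen and 59.6 in skeletal muscle. It was at 172 and 194 CPM in brain but at 3.31 CPM in heart, against at most 5.82 CPM in any library with Ddx3y. All 7 libraries had Pou5f1 at 0 or 0.117 CPM, so this split overlaps the low end of Pou5f1. Sex is not among the labels, and with 1 such library in kidney and in liver no test was made. Leaving these libraries out left 16 kidney, 3 small intestine and 1 liver restricted members, with the shares of all genes not taken. In liver it left 2 members up and 1 down with Pou5f1, where 5.11% and 3.25% of all genes were.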

How the data were processed

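Total RNA of frozen mouse tissue was sequenced as cDNA libraries, per the labels' protocols. Per gene, the authors deposited estimated counts, of which 26.8% of the values above 0 were not whole (tolerance 1e-06), and a normalised table that was not used. The submitters' processing notes name GRCm39 and DESeq2. Not given in the sources used here: aligner, counter, strand setting, annotation; close paralogs are therefore uncertain.

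CPM used column totals. Estimated counts were rounded for edgeR 4.0.16 (R 4.3.3; TMM, filterByExpr, robust glmQLFit) and DESeq2 1.42.0, with Benjamini-Hochberg adjustment over all genes tested. Restriction was fitted over all 96 libraries by tissue, slopes within a tissue, and slope differences in 1 fit of 45 libraries. Each SE was back-calculated as the absolute log2 fold or slope over the square root of its quasi-likelihood F. Other steps used Python 3.11.15, numpy 2.4.6 and pandas 2.3.3. The fits were tested on simulated data. Promoters came from RefSeq (GRCm38.p6).

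Named members are those called, and 12 chosen by role; 1 further member is counted but not reported here or drawn. Members and lists were chosen with earlier results of these data known. Alternatives were other scalings, no filter, DESeq2, other fold minima, pseudocounts and left-out libraries. Leaving out the library with pancreatic genes, and those lacking Ddx3y, and reading slope differences only for genes tested in each of both tissues, was chosen after seeing the data.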

Additional observations from a re-analysis of the deposited data

Results flagged for a closer look

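In spleen (7 libraries), 18 members with a median of 1 CPM or more were looked at for a library far from the others, and 4 had one. Chance gives about 1 in 20, but 11.7% of all 14720 spleen genes at that level had such a library. Slc22a17 was at 23.5 CPM in 1 library, against 8.39 CPM in the next and a median of 6.58 CPM. The carnitine transporter Slc22a5 was at 38.0 CPM, against 21.5 CPM in the next. Both high values came from the same library, the highest in Pou5f1 (14.3 CPM). Slc12a3 was at 4.18 CPM in another library, against 1.91 CPM in the next. At the low end, the organic cation transporter Slc22a3 was at 2.86 CPM, against 5.52 CPM in the next.

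Slopes on Pou5f1 differed between tissues by edgeR's interaction test, adjusted over all genes, for 4 of 23 members with enough counts in both small intestine and kidney (2.95% of all such genes) and for 5 of 18 in both small intestine and liver (16.7%). The differences of small intestine minus kidney were -1.26 for Slc34a2, -1.06 for Slc5a11, -0.84 for Slc5a1 and -0.66 for Slc22a4. The differences of small intestine minus liver were -1.44 for Slc34a2, -0.71 for Slc22a4, -0.43 for Slc22a21, -0.38 for Slc22a5 and 0.52 for Slc22a3.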

How the results depend on the processing

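No paired analysis was possible because the table's columns carry neither genotype nor a replicate number from the labels. Kidney restriction stayed at 14 to 18 members and small intestine restriction at 2 to 4 under the 9 alternatives. Liver restriction was 2 members at a 2-fold minimum and without the count filter, and 0 at a 10-fold minimum, with DESeq2 size factors, with library totals and in DESeq2's Wald test. The shares of all genes restricted under these alternatives were not taken, so these counts do not show how members differ from other genes. In small intestine 1 member fell without the 2 libraries farthest from the median of Pou5f1, where 1.59% of all genes fell. Among libraries at 1 CPM or more of Pou5f1, 2 fell, where 4.74% of all genes did. In that fit, without the count filter and without the libraries of high mitochondrial share 1 member rose. Of all genes, 3.26%, 12.4% and 19.9% rose in these fits. With any 1 library left out, 6 to 10 fell, where 6.35% to 15.9% of all genes did. In liver, libraries at 1 CPM or more of Pou5f1 gave 0 up and 0 down, both for members and over all 14029 genes. There the slope of Slc22a15 (-0.053) reversed. Without the 2 farthest libraries 5 fell, and without the library lacking Ddx3y counts 1 fell, where 10.3% and 3.25% of all genes did. With any 1 liver library left out, 0 to 3 rose and 0 to 6 fell. Of all genes, 2.07% to 14% rose and 0.827% to 15.6% fell in these fits. Over genes filtered in the 3 tissues together, library totals gave 1 slope difference between small intestine and kidney, in place of 6, and 5 between small intestine and liver, in place of 8, and keeping genes tested in each of both tissues gave 4 and 5. The cause of these changes was not tested. Of the remaining values for single members, 44 lost their call in an alternative and 836 did not change their side of the threshold or moved by less than 1 SD. The 836 include values not called in the main fit, such as all kidney slopes, and do not measure how stable the calls are. Each called slope of a named member lost its call under at least 1 alternative. Depth sets a floor of 0.168 to 0.453 CPM, below which members at 0 cannot be told from low ones.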
